A study of Mus musculus with 12 samples.

Results

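The genes described here are the 4 inhibitor of DNA binding (ID) factors Id1, Id2, Id3 and Id4, together with 5 genes of bone morphogenetic protein (BMP) and TGF-beta signalling, namely Smad6, Smad7, Bmp4, Bambi and Skil. Their rows were found by gene name and not by value, but the genes were chosen with earlier results of these data known. Each name matched 1 row, so that the set holds 9 of the 54532 genes in the table. All 9 passed the filter on low counts and were tested among 15122 genes. RNA was sequenced from C2C12 cells, an established line of mouse myoblasts, that had received 30 nM siRNA for 48 h. The siCONTROL cells received a control siRNA, siKEAP1 cells an siRNA against Keap1, siCCNF cells an siRNA against Ccnf, and siKEAP1/siCCNF cells both. Each group had 3 biological replicates, and the groups share the cell line and the time. Where both siRNAs were given, the sources used here do not say whether 30 nM applied to their sum or to each. KEAP1 is the adaptor through which the ubiquitin ligase CUL3 recognizes the oxidative stress regulator NRF2, and CCNF (cyclin F) is a substrate adaptor of a CUL1 ubiquitin ligase. A depletion by siRNA leaves part of the target mRNA in place, and the effect on protein was not analysed here.

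BMP ligands bind pairs of transmembrane receptor kinases that phosphorylate SMAD1, SMAD5 and SMAD9, whereas TGF-beta and activin ligands lead to phosphorylation of SMAD2 and SMAD3. Both kinds of SMAD join SMAD4 and act on genes in the nucleus, among them the Id genes and the feedback inhibitors Smad6, Smad7, Bambi and Skil. ID proteins hold a helix-loop-helix domain without a DNA-binding region and pair with E proteins, which then cannot act with myogenic factors such as MYOD1 on muscle genes. In C2C12 myoblasts, BMP ligands are known to induce Id1 and to divert the cells from muscle towards bone-like differentiation.

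The targeted genes followed the labels. Keap1 mRNA stood at 14.4% of its siCONTROL mean after siKEAP1 and at 27.5% after siKEAP1/siCCNF, and Ccnf mRNA at 25.3% after siCCNF and at 30.2% after siKEAP1/siCCNF. The libraries held between 18464209 and 37743198 counts, and every siCCNF library was deeper than any siCONTROL library. Levels are given as CPM (a gene's counts scaled to a library size common to all libraries) after TMM, whose factors lay between 0.971 and 1.02. Gene by gene, the distance from the group mean went with gene length in siCONTROL replicate 1 (Pearson r = -0.31 across 15122 genes) and in siKEAP1/siCCNF replicate 3 (r = -0.28), more than in any other library, and results that change without both are given with and without them. All 7 myoblast markers checked were expressed in every group. Their summed level lay between 1597 and 1773 CPM in siCONTROL libraries, between 964 and 999 after siKEAP1, between 814 and 828 after siCCNF and between 760 and 843 after both. The 5 osteoblast markers, with Ibsp at 0 throughout, summed to between 1.46 and 2.26 CPM in siCONTROL, 4.55 and 7.09 after siKEAP1, 3.62 and 4.76 after siCCNF and 4.52 and 5.27 after both. In this sum every depleted library lay above every siCONTROL library, but the markers did not rise together. In the same order, group means were 1.06, 4.21, 1.47 and 2.03 CPM for Bglap2 and 0.147, 0.607, 2.28 and 2.31 for Alpl. They were 0.222, 0.659, 0.0917 and 0.386 for Bglap and 0.356, 0.245, 0.254 and 0.245 for Sp7. The 3 leukocyte markers, with Ptprc at 3 counts or fewer throughout, summed to between 1.16 and 2.12 CPM in siCONTROL, 5.67 and 10.7 after siKEAP1, 2.05 and 3.46 after siCCNF and 2.30 and 4.09 after both. The higher sum after siKEAP1 came from Cd68, with a mean of 0.997 CPM in siCONTROL and 7.34 after siKEAP1. Csf1r had means of 0.527 and 0.370 CPM in these groups. The 3 adipocyte markers, with Adipoq and Plin1 at 3 counts or fewer, summed to at most 0.144, 3.32, 0.268 and 0.395 CPM in these groups. The 3 endothelial markers, with Kdr at 3 counts or fewer, summed to between 0.359 and 0.626 CPM in siCONTROL, 0.833 and 1.38 after siKEAP1, 0 and 0.505 after siCCNF and 0.132 and 0.277 after both. The epithelial markers reached 0.263 CPM at most. The part of these marker sums in the results was not tested.

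Promoter sequences were taken from RefSeq on GRCm38.p6, from 250 bases before to 50 bases after the annotated start of transcription, and the table used here held them for Bmp4, Id2, Id3, Id4 and Smad6. Those of Bmp4, Id2, Id3 and Smad6 are shown because these genes were well above the limit of detection and moved in different directions, with Bmp4 falling after siKEAP1, Id2 and Id3 after siCCNF, and Smad6 rising after siCCNF. Capitals mark matches, on either strand, to GGCGCC, a GC-rich motif bound by BMP-activated SMADs, to CAGAC, the SMAD box, and to TGACNNNGC, the core of the antioxidant response element that NRF2 binds. Bmp4 lies at chr14:46390620-46390919 on the minus strand, Id2 at chr12:25096043-25096342 on the minus strand, Id3 at chr4:136143572-136143871 on the plus strand and Smad6 at chr9:64022010-64022309 on the minus strand, each written 5′ to 3′.
Bmp4: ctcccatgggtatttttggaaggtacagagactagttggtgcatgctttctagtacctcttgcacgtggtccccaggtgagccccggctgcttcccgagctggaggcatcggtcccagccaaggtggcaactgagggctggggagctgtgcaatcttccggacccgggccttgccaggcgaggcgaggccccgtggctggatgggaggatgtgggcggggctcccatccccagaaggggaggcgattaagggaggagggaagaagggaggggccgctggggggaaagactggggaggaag
Id2: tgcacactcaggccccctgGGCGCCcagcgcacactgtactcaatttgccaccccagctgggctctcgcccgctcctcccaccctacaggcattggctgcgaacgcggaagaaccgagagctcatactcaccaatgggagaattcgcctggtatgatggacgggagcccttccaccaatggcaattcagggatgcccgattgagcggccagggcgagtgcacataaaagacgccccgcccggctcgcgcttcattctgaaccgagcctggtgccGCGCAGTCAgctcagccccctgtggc
Id3: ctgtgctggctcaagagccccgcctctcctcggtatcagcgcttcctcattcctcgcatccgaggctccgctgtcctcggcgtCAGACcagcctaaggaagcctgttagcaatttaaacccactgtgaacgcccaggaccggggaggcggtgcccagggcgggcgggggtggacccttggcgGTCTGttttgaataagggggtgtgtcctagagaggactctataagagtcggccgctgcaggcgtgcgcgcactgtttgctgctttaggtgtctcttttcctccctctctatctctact
Smad6: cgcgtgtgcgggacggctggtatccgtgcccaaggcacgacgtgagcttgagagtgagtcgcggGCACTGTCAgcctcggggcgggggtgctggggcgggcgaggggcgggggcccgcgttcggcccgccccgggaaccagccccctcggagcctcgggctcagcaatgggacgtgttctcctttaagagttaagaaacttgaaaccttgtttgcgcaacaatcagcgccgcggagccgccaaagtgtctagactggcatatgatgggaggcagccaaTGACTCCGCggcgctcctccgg

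The Bmp4 window held none of these 3 motifs. The Id2 window held GGCGCC starting at position -231 from the start of transcription and TGACNNNGC at position 25, and the Id3 window held CAGAC at positions -167 and -68. In the Smad6 window TGACNNNGC was found at positions -186 and 29, and in the Id4 window GGCGCC at position -148. Of 32851 mouse promoters of the same length, 11.9% held GGCGCC, 49.6% held CAGAC and 12.4% held TGACNNNGC. The E-box CANNTG, the site of E proteins and myogenic factors, was present in 72.3% of all promoters and occurred 3 times in the Bmp4 window and once each in those of Id2 and Smad6. No match overlapped another. These matches describe letters in the windows and were not tested for binding.

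Bmp4, the ligand of the set, gave the widest range of levels. The gene (ENSMUSG00000021835) spans positions 46383520 to 46390669 of chromosome 14 (GRCm38, used for all coordinates). Its level was 55, 70.5 and 67.5 CPM in the siCONTROL libraries and at 16.1, 17.0 and 18.5 CPM after siKEAP1. After siCCNF it reached 88.4, 93.3 and 83.4 CPM, and after siKEAP1/siCCNF 73.1, 78.1 and 82.2 CPM. The siKEAP1 libraries lay apart from all others, and both groups that received siCCNF lay above every siCONTROL library. Against siCONTROL, Bmp4 fell by 1.90 on the log2 scale after siKEAP1 (standard error, SE, 0.10; adjusted p = 1.30e-08 in the quasi-likelihood test of edgeR, corrected after Benjamini and Hochberg over all genes tested), which is 3.73-fold lower. It rose after siCCNF (log2 fold change 0.46, SE 0.093, edgeR adjusted p = 0.00120). It also passed the test as higher after the double depletion (0.27, SE 0.093, edgeR adjusted p = 0.0286), but this call was lost without siCONTROL replicate 1 (0.16), without siKEAP1/siCCNF replicate 2 (0.27) or replicate 3 (0.23), and without both libraries that follow gene length (0.13, edgeR adjusted p = 0.151). In bulk RNA, a lower level per cell and fewer cells that express a gene cannot be told apart.

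The siKEAP1 effect on Bmp4 differed between the backgrounds. In CCNF-depleted cells, siKEAP1 gave a log2 fold change of -0.18 (SE 0.092, edgeR adjusted p = 0.317), compared with -1.90 in control cells. These effects share no library. The difference between them, the interaction of the siRNAs, was 1.72 (SE 0.135, edgeR adjusted p = 5.20e-06), and it passed in all 21 alternatives, where it lay between 1.59 and 1.82. Read the other way, siCCNF raised Bmp4 4.51-fold in KEAP1-depleted cells (log2 fold change 2.17, SE 0.10, edgeR adjusted p = 4.12e-09) and 1.37-fold in control cells. Keap1 mRNA was 12.6 ± 0.279 CPM (SD, n = 3) after siKEAP1 and 24.1 ± 2.56 CPM after siKEAP1/siCCNF, so the depletion of Keap1 was weaker in the double depletion, and its part in the difference of Bmp4 was not tested. Without both libraries that follow gene length, the siKEAP1 effect in CCNF-depleted cells was -0.23 and passed the test (edgeR adjusted p = 0.0231). On the opposite strand, the table lists Gm15222, with 0 to 141 counts per library, and Gm15217, with 2 to 16, beside 347 to 3108 counts for Bmp4. Whether the counting used the strand is not given in the sources used here.

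Bambi (ENSMUSG00000024232) encodes a pseudoreceptor that lacks the kinase domain and blocks BMP and TGF-beta receptors. It was close to the limit of detection. Its level was 1.43, 1.68 and 1.44 CPM in siCONTROL, 1.86, 1.98 and 0.921 after siKEAP1, 1.60, 0.972 and 1.45 after siCCNF, and 1.59, 1.14 and 1.58 after both. All groups overlapped, and no difference was detectable at 21 to 56 counts per library. The log2 fold changes against siCONTROL were 0.07, -0.16 and -0.09 after siKEAP1, siCCNF and both, with standard errors of 0.31, 0.30 and 0.31. The table also lists a processed pseudogene, Bambi-ps1, with 0 to 14 counts, to which the counting could have assigned some reads of Bambi.

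Smad6 encodes an inhibitory SMAD that acts mainly on BMP receptors, and its mRNA was higher wherever siCCNF was present. The gene (ENSMUSG00000036867) lies on chromosome 9 from 63953076 to 64022059. Its levels were 39.6, 45.6 and 47.4 CPM in siCONTROL and 38.5, 40.1 and 39.7 CPM after siKEAP1, which overlap. They were 61.3, 57.1 and 59.0 CPM after siCCNF and 57.9, 57.0 and 63.2 CPM after siKEAP1/siCCNF. Each of these 6 libraries exceeded each of the 6 others. The log2 fold change against siCONTROL was 0.42 after siCCNF (SE 0.076, edgeR adjusted p = 0.000492) and 0.43 after siKEAP1/siCCNF (SE 0.076, edgeR adjusted p = 0.000501), and against siKEAP1 the double depletion raised it by 0.59 (SE 0.076, edgeR adjusted p = 2.81e-05). These 3 calls held in every alternative tried. After siKEAP1 alone the change of -0.16 did not pass (SE 0.077, edgeR adjusted p = 0.109), but it did without siCONTROL replicate 1 (-0.25), with the gene length trend removed (-0.23, edgeR adjusted p = 0.0205) and without both libraries that follow gene length (-0.25, edgeR adjusted p = 0.00170).

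Smad7 (ENSMUSG00000025880) encodes the inhibitory SMAD that targets both TGF-beta and BMP receptors. Its mRNA stood at 36.9, 38.2 and 43.1 CPM in siCONTROL, at 34.7, 37.8 and 36.6 CPM after siKEAP1, at 48.9, 45.0 and 52.6 CPM after siCCNF and at 46.1, 49.2 and 41.7 CPM after both. All siCCNF libraries lay above all siCONTROL libraries, whereas the double depletion overlapped with siCONTROL. The rise after siCCNF was 0.31 on the log2 scale (SE 0.087, edgeR adjusted p = 0.00988), and it narrowly missed the threshold without siCCNF replicate 3 (0.26, edgeR adjusted p = 0.0522). In KEAP1-depleted cells siCCNF raised it by 0.33 (SE 0.087, edgeR adjusted p = 0.00642), a call that held in every alternative tried. Against siCONTROL the double depletion gave 0.21 (SE 0.087, edgeR adjusted p = 0.0629), which passed without siCONTROL replicate 3 (0.28), without siKEAP1/siCCNF replicate 3 (0.27) and without both libraries that follow gene length (0.22, edgeR adjusted p = 0.0349).

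Skil encodes SnoN, a nuclear co-repressor that binds SMAD complexes and is itself a target of TGF-beta. The gene (ENSMUSG00000027660) lies on chromosome 3 from 31095058 to 31122577, and at 9694 bases its combined exons are the longest of the set. Levels were 62.4, 68.7 and 69.2 CPM in siCONTROL, 64.8, 74.9 and 71.1 CPM after siKEAP1, 99.6, 115 and 111 CPM after siCCNF, and 103, 104 and 69.7 CPM after both. The siCCNF libraries lay above all siCONTROL and siKEAP1 libraries. In the double depletion, replicate 3, which follows gene length, lay far below the others and within the range of the siKEAP1 libraries. Skil rose after siCCNF by 0.70 on the log2 scale (SE 0.128, edgeR adjusted p = 0.000573) and after siKEAP1/siCCNF by 0.47 (SE 0.128, edgeR adjusted p = 0.00959). The latter was lost without siKEAP1/siCCNF replicate 2 (0.37, edgeR adjusted p = 0.0543) and was 0.58 without both libraries that follow gene length. After siKEAP1 the change was 0.07 (SE 0.129, edgeR adjusted p = 0.689).

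Id1, the best known of the early BMP targets, went in the opposite direction to Smad6 after siCCNF. The gene (ENSMUSG00000042745) lies on chromosome 2 from 152736251 to 152737410. Its levels were 180, 146 and 154 CPM in siCONTROL and 178, 194 and 195 CPM after siKEAP1. They were 76.9, 87.1 and 82.2 CPM after siCCNF and 94.9, 93.6 and 109 CPM after siKEAP1/siCCNF. The 6 libraries that received siCCNF lay below all 6 others. The log2 fold change against siCONTROL was -0.96 after siCCNF (SE 0.089, edgeR adjusted p = 1.77e-06) and -0.69 after siKEAP1/siCCNF (SE 0.089, edgeR adjusted p = 3.65e-05), so that 51.3% and 62.1% of the control mean remained. In KEAP1-depleted cells siCCNF lowered Id1 to a like extent (-0.93, SE 0.089, edgeR adjusted p = 2.00e-06), and the interaction was 0.03 (SE 0.125, edgeR adjusted p = 0.891). The rise after siKEAP1 alone was small (0.24, SE 0.088, edgeR adjusted p = 0.0439). It overlapped with siCONTROL and was lost without any 1 of 9 of the 12 libraries (0.17 to 0.24), all but siCONTROL replicate 1, siKEAP1 replicate 1 and siKEAP1/siCCNF replicate 3, and with a replicate block (0.24, edgeR adjusted p = 0.0660). In CCNF-depleted cells, siKEAP1 gave 0.27 without overlap (SE 0.089, edgeR adjusted p = 0.104), which passed without siCONTROL replicate 1 (0.27) and without both libraries that follow gene length (0.19, edgeR adjusted p = 0.0268).

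Id2, like Id1, was lower wherever siCCNF was present. The gene (ENSMUSG00000020644) lies on chromosome 12 from 25093799 to 25097140, and the RefSeq start used for the promoter above lies inside it. Levels were 104, 91.9 and 94.3 CPM in siCONTROL, 80.7, 86.9 and 84.8 CPM after siKEAP1, 44.2, 48.0 and 50.2 CPM after siCCNF and 44.6, 43.7 and 43.6 CPM after both. All libraries with siCCNF lay below all without it. After siCCNF the log2 fold change was -1.03 (SE 0.069, edgeR adjusted p = 1.11e-07), and after siKEAP1/siCCNF it was -1.14 (SE 0.070, edgeR adjusted p = 6.98e-08). Against siKEAP1 the double depletion lowered Id2 by a log2 fold change of -0.94 (SE 0.069, edgeR adjusted p = 1.88e-07). The smaller fall after siKEAP1 (-0.20, SE 0.068, edgeR adjusted p = 0.0320) was lost in 8 of 22 alternatives, among them those without siCONTROL replicate 1 (-0.16), siKEAP1 replicate 1 (-0.18) or siKEAP1 replicate 3 (-0.21) and the one with a replicate block (-0.20, edgeR adjusted p = 0.0541). In CCNF-depleted cells siKEAP1 did not change it detectably (-0.11, SE 0.069, edgeR adjusted p = 0.449).

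Id3 was the most abundant member and fell after every depletion. The gene (ENSMUSG00000007872) lies on chromosome 4 from 136143497 to 136145755, and the promoter window shown above lies inside it. Levels were 700, 583 and 595 CPM in siCONTROL, 476, 439 and 449 CPM after siKEAP1, 417, 416 and 427 CPM after siCCNF, and 407, 390 and 489 CPM after both. Every siCONTROL library lay above all 9 others, and the depleted groups overlapped except for siKEAP1 and siCCNF. Against siCONTROL, the log2 fold change was -0.46 after siKEAP1 (SE 0.090, edgeR adjusted p = 0.00110), -0.58 after siCCNF (SE 0.090, edgeR adjusted p = 0.000163) and -0.55 after siKEAP1/siCCNF (SE 0.090, edgeR adjusted p = 0.000275). All 3 calls held in every alternative. The falls after the single depletions did not add up. In CCNF-depleted cells siKEAP1 gave 0.03 (SE 0.090, edgeR adjusted p = 0.906), and the interaction of 0.49 (SE 0.127, edgeR adjusted p = 0.0149) passed in all 21 alternatives, between 0.30 and 0.55. Against siKEAP1, the double depletion gave -0.08 (SE 0.090, edgeR adjusted p = 0.455), but -0.18 without both libraries that follow gene length, which passed (edgeR adjusted p = 0.00172).

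Id4 (ENSMUSG00000021379, chromosome 13 from 48261228 to 48266026) was expressed at the edge of detection, with 10 to 102 counts per library. Levels were 1.21, 1.36 and 0.482 CPM in siCONTROL, 1.07, 1.01 and 0.921 CPM after siKEAP1, 2.91, 1.52 and 1.74 CPM after siCCNF and 1.63, 1.05 and 2.02 CPM after both. It was the only ID factor that rose after siCCNF (log2 fold change 1.03, SE 0.373, edgeR adjusted p = 0.0362). The call rested on siCONTROL replicate 3, without which the change was 0.69 (edgeR adjusted p = 0.136), and on siCCNF replicate 1, without which it was 0.69 (edgeR adjusted p = 0.170). After siKEAP1/siCCNF the change was 0.61 (SE 0.386, edgeR adjusted p = 0.223).

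**Figure D1:**
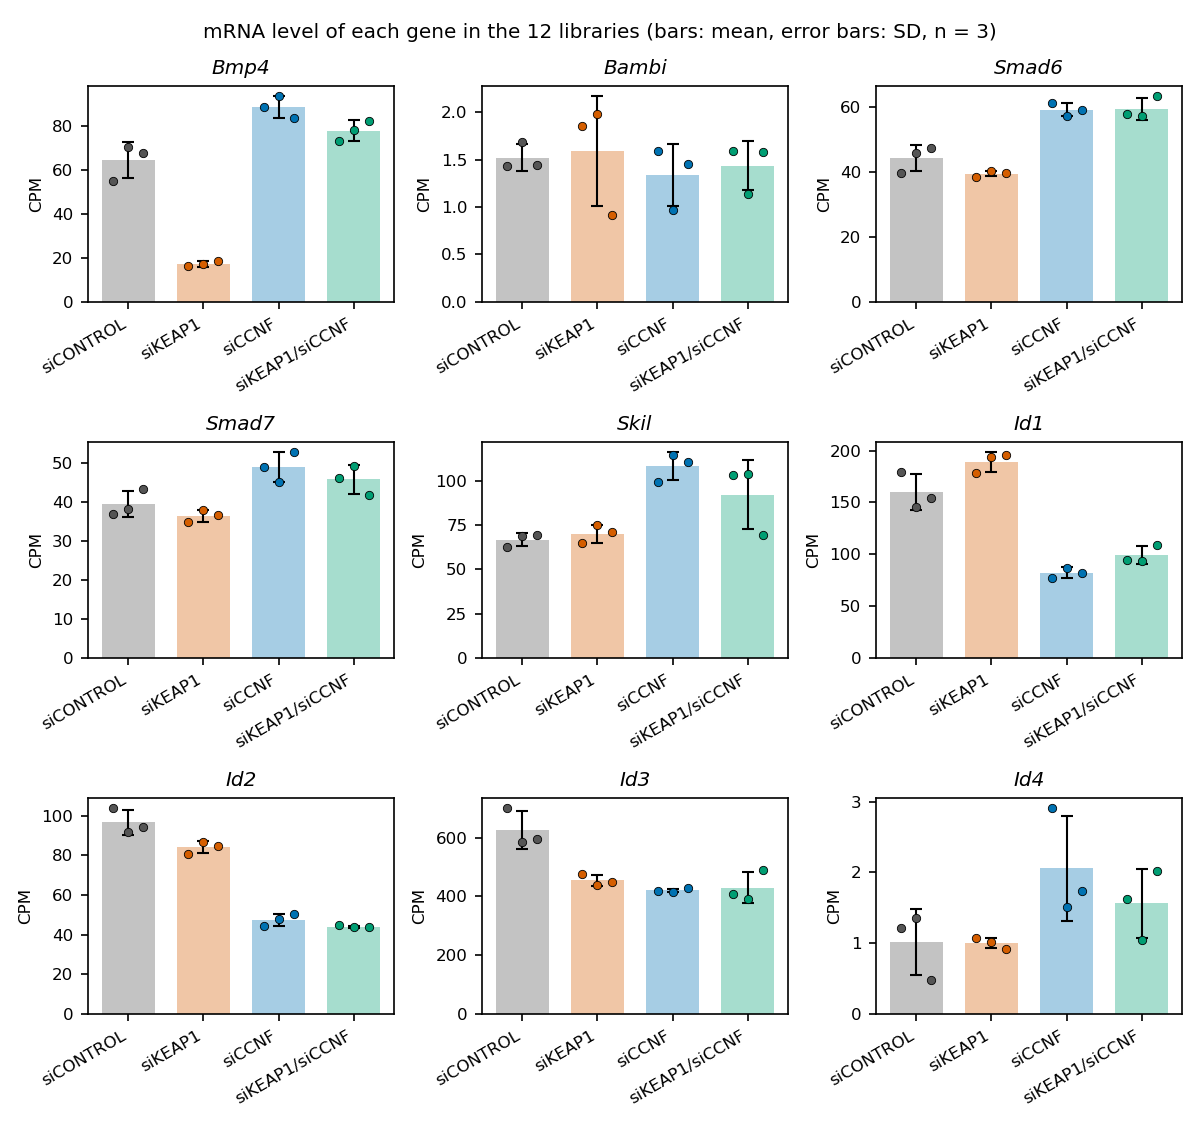
Level of each of the 9 genes in the 12 libraries, in CPM on a linear axis from 0. Points are libraries in the order of their replicate number, bars the mean and error bars the SD (n = 3). Bmp4 drops to between 16.1 and 18.5 CPM after siKEAP1 alone, while Id1 and Id2 are low and Smad6 high in both groups that received siCCNF.

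Counted over the set, siKEAP1 raised 1 of the 9 genes (Id1) and lowered 3 (Bmp4, Id2 and Id3) at an adjusted p under 0.05. Of all genes tested, 20.4% were higher and 20.2% lower in this comparison. After siCCNF 5 were higher (Bmp4, Smad6, Smad7, Skil and Id4) and 3 lower (Id1, Id2 and Id3), leaving Bambi alone without a call, beside 22.5% higher and 25.5% lower among all genes. After siKEAP1/siCCNF 3 were higher (Bmp4, Smad6 and Skil) and 3 lower (Id1, Id2 and Id3), where all genes gave 20.6% and 23.6%. The double depletion compared with siKEAP1 gave 4 higher (Bmp4, Smad6, Smad7 and Skil) and 2 lower (Id1 and Id2), against 24.1% and 26.9% of all genes. Compared with siCCNF it gave 0 of 9 by edgeR, beside 3.00% higher and 2.19% lower among all genes, and Id1 alone was under 0.05 without adjustment. DESeq2 and limma on FPKM also called 0 of the 9 in that comparison. For the interaction 2 of 9 passed, both positive (Bmp4 and Id3), where 10.6% of all genes were positive and 10.5% negative.

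Differences over 2-fold were fewer. Bmp4 alone exceeded this after siKEAP1, Id2 and Id4 after siCCNF, Id2 after siKEAP1/siCCNF, and Bmp4 in the double depletion compared with siKEAP1, while no member did so compared with siCCNF. The shares of all genes that passed at an adjusted p under 0.05 and over 2-fold were 11.5%, 11.4%, 10.3%, 14.5% and 0.727% in the same order. The median log2 fold change of the 9 genes was -0.12 for siKEAP1, 0.31 for siCCNF and 0.21 for the double depletion, with medians of -0.01, 0.01 and 0.01 over all genes tested. The comparisons against siCONTROL share its 3 libraries.

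**Figure D2:**
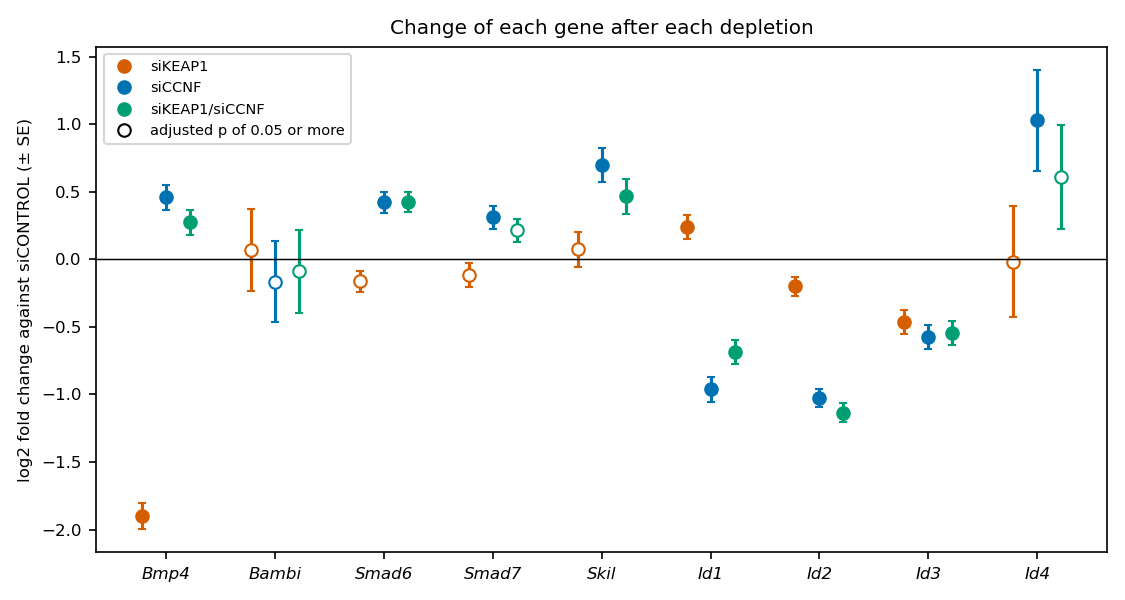
Log2 fold change of each of the 9 genes against siCONTROL, with standard errors, after siKEAP1, siCCNF and siKEAP1/siCCNF. Filled points passed at an adjusted p under 0.05. Id1, Id2 and Id3 lie below 0 in both groups with siCCNF, Smad6 and Skil above 0, and Bmp4 falls only after siKEAP1 alone.

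Side by side, the siCCNF effects in control and in KEAP1-depleted cells, measured on separate libraries, were -0.96 and -0.93 on the log2 scale for Id1, -1.03 and -0.94 for Id2, 0.42 and 0.59 for Smad6 and 0.31 and 0.33 for Smad7. None of these pairs differed by the interaction test, with interactions of 0.03, 0.09, 0.17 and 0.02 and standard errors from 0.097 to 0.125. Skil gave 0.70 and 0.39 (interaction -0.30, SE 0.181, edgeR adjusted p = 0.267), and the interaction was -0.14 without siKEAP1/siCCNF replicate 3 and -0.09 without both libraries that follow gene length. The effect of 0.39 was lost with limma on log2(FPKM + 0.1) (0.36) and without siKEAP1 replicate 1 (0.34) or siKEAP1/siCCNF replicate 1 (0.31) or 2 (0.30), and was 0.56 without both libraries that follow gene length. Id3 and Bmp4 were the members whose siCCNF effects differed, with -0.58 and -0.08 for Id3 and 0.46 and 2.17 for Bmp4.

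**Figure D3:**
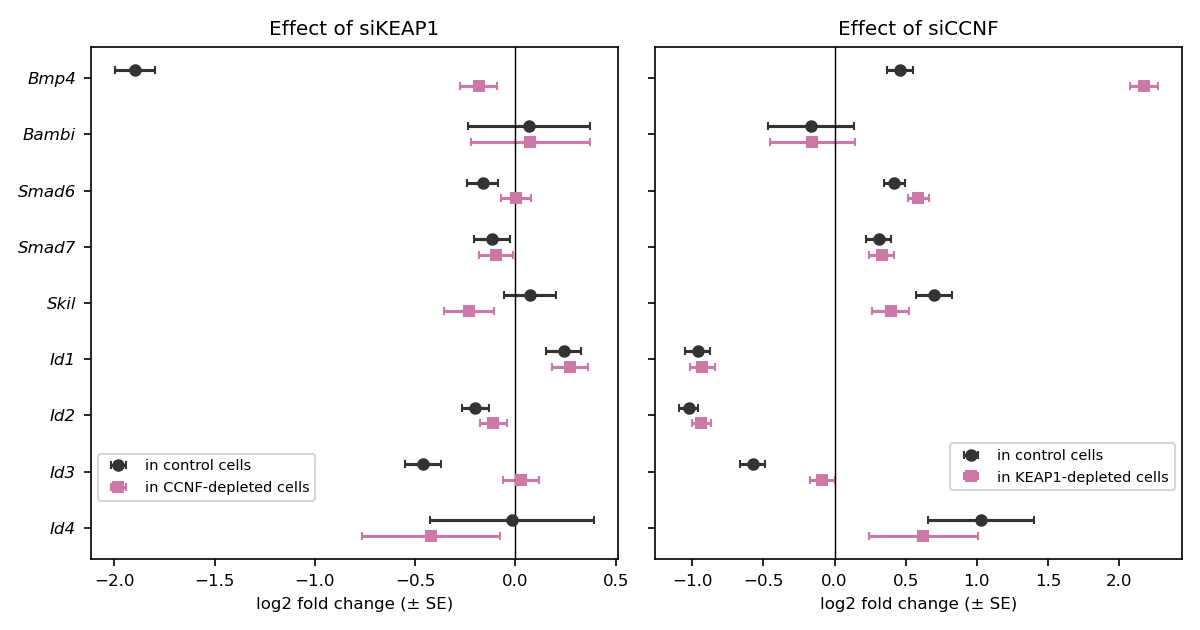
Log2 fold change, with standard errors, of siKEAP1 (left) in control and in CCNF-depleted cells, and of siCCNF (right) in control and in KEAP1-depleted cells. The symbols of Bmp4 are the farthest apart (-1.90 and -0.18 on the left, 0.46 and 2.17 on the right), followed by those of Id3 among the genes that passed the interaction test.

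Per length of the gene, in the FPKM values of the authors' table, the siCONTROL means ran from 347 ± 35.7 for Id3 and 137 ± 15.0 for Id1 through 39.3 ± 2.55 for Id2, 28.4 ± 3.64 for Bmp4, 13.7 ± 1.25 for Smad6, 8.65 ± 0.694 for Smad7 and 6.84 ± 0.382 for Skil to 0.299 ± 0.0281 for Bambi and 0.262 ± 0.121 for Id4 (SD, n = 3). By mean CPM, the order of the groups differed between genes. For Bmp4 it ran from siCCNF through siKEAP1/siCCNF and siCONTROL to siKEAP1, of which siCCNF and the double depletion did not differ by the test. For Id1 it ran from siKEAP1 through siCONTROL and siKEAP1/siCCNF to siCCNF, with the last pair not differing. For Id2 it ran from siCONTROL through siKEAP1 to siCCNF and siKEAP1/siCCNF, which did not differ. For Id3 siCONTROL stood first and the 3 depleted groups did not differ between neighbours. For Smad6 the groups with siCCNF, which did not differ, stood above siCONTROL and siKEAP1, which did not differ either. For Smad7, Id4 and Bambi no neighbours in the order differed, and for Skil only siKEAP1/siCCNF and siKEAP1 did, although their libraries overlapped. In CPM, the highest group mean exceeded the lowest 5.13-fold for Bmp4, 2.30-fold for Id1, 2.20-fold for Id2, 2.05-fold for Id4 and 1.19- to 1.62-fold for the other members.

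Of 80 other genes of the pathway, listed by role, 69 were expressed well enough to be tested. After siKEAP1 17 rose and 20 fell, after siCCNF 26 rose and 22 fell, and after siKEAP1/siCCNF 22 rose and 19 fell. Higher and lower, these are 24.6% and 29.0%, 37.7% and 31.9%, and 31.9% and 27.5% of the 69, where all genes gave 20.4% and 20.2%, 22.5% and 25.5%, and 20.6% and 23.6%. The counts by role are over lists of 6 to 14 genes and are read against the same shares. The median log2 fold changes of the 69 were -0.06, -0.01 and -0.09, close to those of all genes.

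Among the other ligands, Tgfb2, Tgfb3 and Inhbb fell after siKEAP1 and had a positive interaction, as Bmp4 did. Tgfb1 and Inhba had a negative interaction. Of 16 listed, 9 were tested, and Bmp3, Bmp7, Gdf5, Gdf6, Gdf10 and Mstn had 4 counts or fewer in every library. After siKEAP1 3 rose and 4 fell, among them Tgfb2, a TGF-beta isoform, from 61.9 ± 2.68 to 19.4 ± 0.323 CPM (log2 fold change -1.68, SE 0.075, edgeR adjusted p = 3.99e-09). Tgfb2 was also lower after siCCNF (-0.94) and after both (-0.97), and it rose when siCCNF was added to siKEAP1 (0.71, SE 0.075, edgeR adjusted p = 4.90e-06). Its interaction of 1.65 (SE 0.104, edgeR adjusted p = 1.07e-06) was close to the 1.72 of Bmp4. Of the ligands tested, Tgfb3 fell most after siKEAP1/siCCNF against siCONTROL (-1.70, SE 0.079, edgeR adjusted p = 8.68e-09). Tgfb3 was also lower after siKEAP1 (-1.45) and siCCNF (-1.34), with an interaction of 1.10 (SE 0.110, edgeR adjusted p = 2.69e-05). Inhbb, which encodes an activin subunit, moved like Bmp4 in direction, with -0.72 after siKEAP1, 1.63 after siCCNF and 1.61 after both (edgeR adjusted p = 2.16e-07 for the last). Its interaction was 0.69 (SE 0.161, edgeR adjusted p = 0.00810). In all, 3 of the 9 ligands tested had a positive interaction that passed and 2 a negative one. Tgfb1 rose after siKEAP1 (0.34, SE 0.058, edgeR adjusted p = 0.000386), with an interaction of -0.37 (SE 0.082, edgeR adjusted p = 0.00585). The BMP ligands Bmp5 (1.54, SE 0.55, edgeR adjusted p = 0.0402) and Bmp8a (2.70, SE 0.74, edgeR adjusted p = 0.00996) also rose after siKEAP1, opposite to Bmp4. Both were near the limit of detection, with siCONTROL means of 0.501 and 0.116 CPM. For Inhba the interaction was -0.90 (SE 0.240, edgeR adjusted p = 0.0172).

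All 14 receptors and co-receptors were tested. After siKEAP1 4 rose and 3 fell, after siCCNF 6 rose and 5 fell, and in the double depletion 5 rose and 3 fell. Tgfbr1, the type I TGF-beta receptor, fell by a log2 fold change of -1.35 when siCCNF was added to siKEAP1 (SE 0.121, edgeR adjusted p = 1.05e-06), having risen after siKEAP1 (0.57) and fallen after siCCNF (-1.09). Tgfbr3, a co-receptor, rose after both siRNAs (1.33, SE 0.209, edgeR adjusted p = 0.000186). Of the 6 receptor-activated and common SMADs, 0 passed after siKEAP1 by edgeR and 1 had an unadjusted p under 0.05, while DESeq2 called 1 and limma on FPKM 1 of them. After siCCNF 1 was lower by edgeR and 2 by limma on FPKM, and after the double depletion 2 by either. By edgeR, Smad1, the effector of BMP receptors, fell in both (-0.71 and -0.63). Smad2 was at -0.14 after siCCNF (SE 0.060, edgeR adjusted p = 0.0717) and fell in the double depletion (-0.29, SE 0.061, edgeR adjusted p = 0.00183), with an interaction of -0.04 (edgeR adjusted p = 0.774). Both names were picked after their values were seen.

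Of 12 secreted antagonists listed, 10 were tested, and 2 rose and 3 fell after siKEAP1, 5 rose and 2 fell after siCCNF, and 5 rose and 1 fell after siKEAP1/siCCNF. Chrdl1, a chordin-like BMP antagonist, stood at 19.7 ± 3.74 CPM in siCONTROL, 2.47 ± 0.257 after siKEAP1, 65.8 ± 1.60 after siCCNF and 41.5 ± 3.66 after both (SD, n = 3). Its log2 fold change was -2.99 after siKEAP1 (SE 0.149, edgeR adjusted p = 8.14e-09), 1.74 after siCCNF (SE 0.118, edgeR adjusted p = 1.17e-07) and 4.07 for siCCNF in KEAP1-depleted cells (SE 0.146, edgeR adjusted p = 8.62e-10), with an interaction of 2.33. Fst, which encodes the activin antagonist follistatin, rose after siCCNF (1.54) and after both (1.27), with 0.07 after siKEAP1. Chrd, which encodes chordin, fell when siCCNF was added to siKEAP1 (-1.07, SE 0.159, edgeR adjusted p = 9.83e-05). Its mean was 8.05 CPM in siCONTROL, 13.2 after siKEAP1, 6.35 after siCCNF and 6.31 after both. Of the 6 other intracellular inhibitors, which include SMURF ligases and SKI, 1 rose and 3 fell after siKEAP1, 3 rose and 2 fell after siCCNF, and 2 rose and 1 fell after both. Ski, the paralog of Skil, went the other way from it after siCCNF (-1.10, a value singled out after it was seen).

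Further response genes did not move as 1 block. Of 7 other BMP response genes tested, 4 rose and 1 fell after siKEAP1, 3 rose and 1 fell after siCCNF, and 2 rose and 2 fell after both. Dlx3, a homeobox gene induced by BMP, changed in the same directions as Id1, with 1.15 after siKEAP1 (SE 0.095, edgeR adjusted p = 6.81e-07), -1.62 after siCCNF (SE 0.102, edgeR adjusted p = 6.34e-08) and -1.62 after siKEAP1/siCCNF (SE 0.103, edgeR adjusted p = 8.78e-08). Its interaction was -1.16 (edgeR adjusted p = 0.000106), beside 0.03 for Id1. Dlx3 was the 1 gene of these 7 that fell after siCCNF, where 3 rose. Msx1, another of the 7, had means of 12.7 CPM in siCONTROL, 16.1 after siKEAP1, 17.7 after siCCNF and 20.2 after both. Of 10 other TGF-beta response genes, 3 rose and 3 fell after siKEAP1, 6 rose and 1 fell after siCCNF, and 5 rose and 1 fell after both. Ctgf, a matricellular protein gene, rose after siCCNF (1.26, SE 0.154, edgeR adjusted p = 1.90e-05) and by 2.31 when siCCNF was added to siKEAP1. Its mean was 10.2 CPM in siCONTROL, 3.40 after siKEAP1, 24.5 after siCCNF and 16.8 after both. Tgfbi, an extracellular matrix gene, rose after siKEAP1 (1.43, SE 0.208, edgeR adjusted p = 0.000105).

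**Figure D4:**
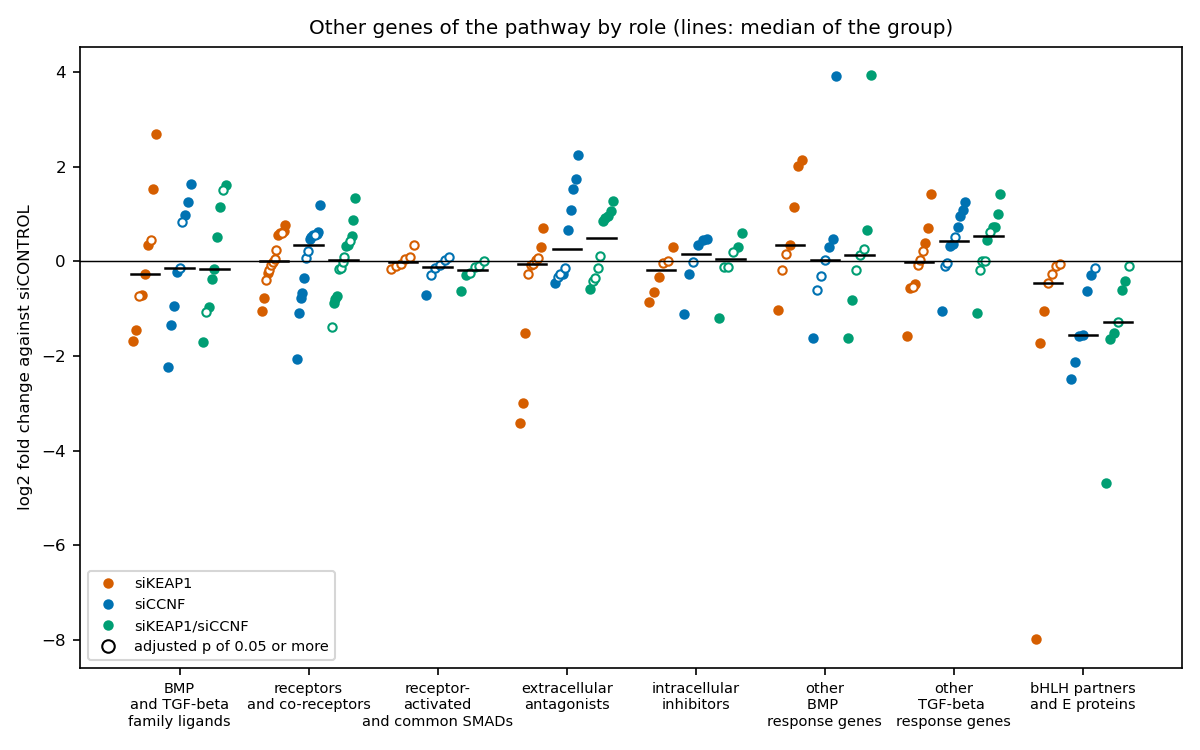
Log2 fold change against siCONTROL of the 69 other pathway genes tested, grouped by role, after siKEAP1, siCCNF and siKEAP1/siCCNF. Filled points passed at an adjusted p under 0.05, and black lines are group medians. Group medians lie on both sides of 0, with 0.44 after siCCNF and 0.54 after both for other TGF-beta response genes. The bHLH partners of ID proteins lie below 0 in every comparison.

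Most partners of the ID proteins were lower after siCCNF, as were Id1, Id2 and Id3, while Id4 was higher. Of the 7 E proteins and myogenic factors, 3 fell after siKEAP1, 6 after siCCNF and 5 in the double depletion by edgeR, beside 20.2%, 25.5% and 23.6% of all genes, and the log2 fold change of each of the 7 was negative in these comparisons (-0.05 or lower). In FPKM, the E protein Tcf3 stayed between 54.8 and 60.1 in the group means and did not pass by edgeR against siCONTROL (log2 fold changes -0.05, -0.13 and -0.09), whereas DESeq2 called all 7 genes lower after siCCNF, Tcf3 included. Tcf4 fell after siCCNF (-0.63) and after both (-0.60), and Tcf12 fell by smaller amounts (-0.28 and -0.42). The siKEAP1/siCCNF libraries of Tcf4 spread from 92.1 to 130 CPM. Myod1 went from 121 ± 12.7 FPKM in siCONTROL to 36.7 ± 0.768 after siKEAP1, 40.4 ± 2.96 after siCCNF and 42.8 ± 2.89 after both (SD, n = 3). Its log2 fold change was -1.73 after siKEAP1 (SE 0.086, edgeR adjusted p = 8.02e-09) and -1.58 after siCCNF (SE 0.085, edgeR adjusted p = 1.86e-08). Myf5 fell most where siCCNF was present (-1.55 after siCCNF and -1.64 after both, adjusted p = 1.39e-08 and 1.08e-08 from edgeR). Myog, which encodes myogenin, stood at 30.1 FPKM in siCONTROL, 0.117 after siKEAP1, 5.38 after siCCNF and 1.17 after both, with 19.4 to 49.6 FPKM among the siCONTROL libraries. Its siKEAP1 libraries held 3 to 5 counts. Myf6 was near the limit of detection in every group, at 2 to 15 counts per library. Its means were 0.391 FPKM in siCONTROL, 0.293 after siKEAP1, 0.0848 after siCCNF and 0.169 after both. After siKEAP1 alone, Id3 was thus lower while Myod1, Myf5 and Myog fell. The rise of Id1 and the fall of Id2 in that comparison were lost in 12 and 8 of 22 alternatives.

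**Figure D5:**
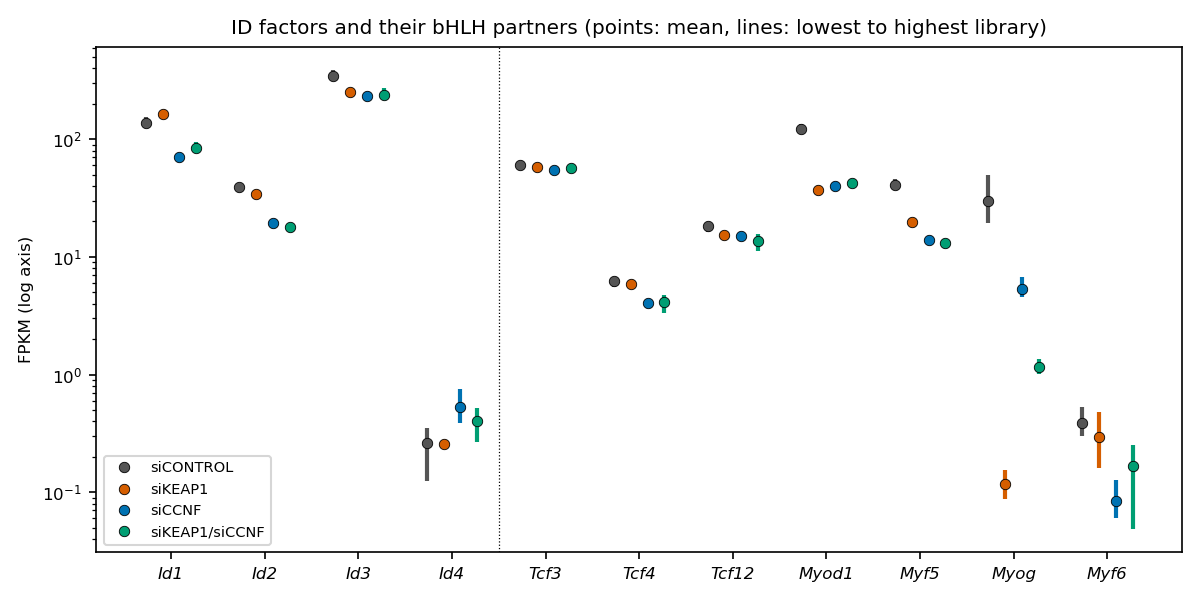
Level of the ID factors (left of the dotted line) and of their bHLH partners in each group, in FPKM on a log axis. Points are means of 3 libraries and lines run from the lowest to the highest library. Id1 and Id2 are lower in both groups with siCCNF, Tcf3 is nearly level, and Myog is lowest after siKEAP1.

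The genes whose log2 CPM over the 12 libraries was most like that of a member were found among 11824 others with a mean of at least 1 log2 CPM. The libraries form 4 groups that every gene shares, so that these Pearson r and Spearman rho describe likeness over the groups and carry no test. For Id1 the closest were Agpat1 (r = 0.992, rho = 0.965), Tubb3 (r = 0.991, rho = 0.972) and Hprt (r = 0.990, rho = 0.923). For Id2 they were Tfdp1 (r = 0.993, rho = 0.909), Stk25 (r = 0.992, rho = 0.902) and Pgam1 (r = 0.991, rho = 0.895). Id3 was followed most closely by Pdlim4 (r = 0.989, rho = 0.958), Maz (r = 0.986, rho = 0.937) and Abhd8 (r = 0.982, rho = 0.930). Bmp4 was followed by Fbln5 (r = 0.989, rho = 0.895), Galnt10 (r = 0.987, rho = 0.902) and Rtn4ip1 (r = 0.986, rho = 0.930). By rho these genes rank lower for Bmp4, at 478, 401 and 200 among all genes compared. For Smad6 the closest were Mettl13 (r = 0.986), Gpc1 (r = 0.983) and Hdac7 (r = 0.983), for Smad7 Pik3r4 (r = 0.962), Cspp1 (r = 0.962) and Zbtb26 (r = 0.958), and for Skil Tgs1 (r = 0.976), N4bp2l2 (r = 0.970) and Alkbh8 (r = 0.969). The likeness was weaker for the low-count genes, with r of at most 0.888 for Id4 (Rpl30) and 0.772 for Bambi (Cetn4). No member was among the 3 genes closest to another member.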

How the data were processed

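C2C12 RNA was poly(A)-selected, and the libraries were prepared, sequenced and analysed by Novogene for the authors. The authors deposited, for each of 54532 genes, a count of reads per library without normalization and an FPKM value per library. The submitters' processing notes name HISAT2 and GRCm39, but 53462 of 54409 genes shared with GENCODE M21 have the same coordinates as on GRCm38. The counting tool and its handling of strand are not given in the sources used here. Columns with the authors' own fold changes and p-values were not used.

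Tests on the counts used edgeR 4.0.16 (R 4.3.3). The filterByExpr function kept 15122 genes, TMM scaled the libraries, and all 12 entered 1 quasi-likelihood fit with 4 group means. Benjamini-Hochberg correction covered every gene tested, and a gene passed below an adjusted p of 0.05. CPM values include the TMM factors, and log2 CPM a prior count of 2. Depth ranged from 18464209 to 37743198 counts, and n = 3 limits the precision. In a chi-square test of their counts, every pair of replicates differed by more than sampling noise. Chi-square per degree of freedom was 35.1 and 43.3 for siCONTROL replicate 1 against the others of its group. It was 29.2 and 31.8 for siKEAP1/siCCNF replicate 3, and between 2.96 and 13.1 for all other pairs.

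The members, the lists and the tests were chosen with earlier results of these data known. All 9 members, Keap1 and Ccnf are named, as are the E proteins and myogenic factors. Of the other pathway genes, up to 4 rises and 4 falls per comparison are named among those over 2-fold, with a mean log2 CPM of 1 or more and groups without overlap (2 each way for the interaction); of each member, the 3 genes most like it are named. Pathway genes named outside this rule were picked after their values were seen. A pathway gene that this rule selects is not reported here.

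Alternatives were DESeq2 1.42.0, total library sizes in edgeR, a filter of 1 count in all, at least 10 counts per library, a replicate block, limma 3.58.1 on log2(FPKM + 1) and log2(FPKM + 0.1), a spline of gene length (5 degrees of freedom) as an offset, fits restricted to the groups compared, and every library left out in turn. Leaving out both libraries that follow gene length was chosen after seeing the data. The code was tested on simulated data.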

Additional observations from a re-analysis of the deposited data

Results flagged for a closer look

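The effect of siKEAP1 differed between control cells and CCNF-depleted cells for 2 of the 9 genes by the interaction test. For Bmp4, the effect in CCNF-depleted cells minus that in control cells was 1.72 on the log2 scale (SE 0.135, edgeR adjusted p = 5.20e-06), and all 3 libraries of siKEAP1/siCCNF lay above all 3 of siKEAP1. For Id3 this difference was 0.49 (SE 0.127, edgeR adjusted p = 0.0149), where siKEAP1 changed the level by -0.46 in control cells and by 0.03 in CCNF-depleted cells. Residual Keap1 mRNA differed between the groups as well, with 14.4% of the siCONTROL mean after siKEAP1 and 27.5% after siKEAP1/siCCNF, and its part in both results was not tested.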

How the results depend on the processing

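Of the 26 differences of single genes that passed the test, 19 kept their call in all alternatives and 0 changed sign (edgeR, DESeq2 and limma). The count of members that passed after siKEAP1 was 4 and fell to 2 with a replicate block, with limma on log2(FPKM + 0.1) and in a fit of the compared groups only, and lay between 2 and 4 with 1 library left out (2 without siKEAP1 replicate 3). In the double depletion against siCCNF it was 0, between 0 and 1 with 1 library left out (1 without siCONTROL replicate 1), and 2 without both libraries that follow gene length. For the pathway genes in that comparison, 6 of 69 passed, against 11 of 69 with DESeq2, 10 of 77 without the filter and 11 of 69 with the length trend removed. In a fit of the compared groups 3 of 64 passed, and 18 of 70 without both libraries that follow gene length. With 1 library left out, between 3 (without siKEAP1/siCCNF replicate 2) and 11 (without siCONTROL replicate 1) passed. The calls among all genes moved as well. In the main fit 454 were higher and 331 lower of 15122, against 736 and 534 with DESeq2. There were 593 and 601 with the length trend removed, 263 and 253 of 14644 in a fit of the compared groups, and 1136 and 1050 of 15545 without both libraries.

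Signs changed for values near 0 that had not passed, and the cause was not tested. For siKEAP1 against siCONTROL, Id4 (-0.02) gave 0.0017 with at least 10 counts, 0.0040 with a replicate block, 0.0011 and 0.051 with limma at the larger and the smaller pseudocount, 0.14 without both libraries, and -0.36 to 0.22 with 1 library left out. Bambi (0.07) gave -0.0073 with the length trend removed and -0.14 to 0.34 with 1 library left out, and Skil (0.07) gave -0.040 with the trend removed. For siKEAP1/siCCNF against siCCNF, Smad6 (0.01) gave -0.0029 without the filter, -0.031 with the trend removed, -0.00092 in a fit of the compared groups, -0.048 without both libraries and -0.048 to 0.025 with 1 left out. Id3 (0.03) gave -0.015 with the trend removed, -0.081 without both libraries and -0.081 to 0.083 with 1 left out. Bambi (0.08) gave -0.010 without both libraries and -0.10 to 0.22 with 1 left out. With 1 library left out, Bambi also ran from -0.30 to 0.010 after siCCNF, from -0.17 to 0.056 after siKEAP1/siCCNF and from -0.43 to 0.044 in the latter against siKEAP1. Interactions that changed sign were those of Id1 (0.03; -0.13 without both libraries, -0.057 to 0.094 with 1 left out), Smad7 (0.02; -0.047 to 0.083 with 1 left out) and Bambi (0.01; -0.016 with at least 10 counts, -0.027 without both libraries, -0.26 to 0.21 with 1 left out).

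The sources used here do not say whether libraries with the same replicate number were prepared together, and their correlations do not decide it. Of 18 pairs with the same number, 4 had a correlation of deviations over 0.1 (from -0.27 to 0.20). Of 36 pairs with different numbers, 5 did (from -0.28 to 0.39), the highest between the 2 libraries that follow gene length. In all, 6 of 12 libraries correlated best with one of their own number. The replicate block changed no call of a member besides those of Id1 (0.24) and Id2 (-0.20) after siKEAP1. Bambi and Id4, with at most 102 counts, are limited by depth.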
